A study of Homo sapiens with 24 samples.

Results

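Small nucleolar RNA (snoRNA) host genes were described in 4 established lines of glioblastoma cells, which were DBTRG-05MG, T98G, U251MG, and U87MG. A gene was taken as a host when its Ensembl identifier mapped to a symbol of the SNHG series with a number, or to GAS5, DANCR, ZFAS1, or EPB41L4A-AS1. The rule used names and no measured value. It found 32 of 43037 genes, and GENCODE 44 annotates all 32 as lncRNA. Of these, 25 reached 5 CPM (tags, scaled to a common total of tags on genes) in at least 1 of 24 libraries and were tested among 12327 genes that passed this filter.

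Each line had been stably transduced with lentivirus and put through what the study calls clonal selection with puromycin. The “WWOX” variant carried a vector that overexpresses WWOX from a CMV promoter, and the “Vec” variant carried the blank control virus. There were 3 libraries per variant in each line, which the study names biological replicates. Whether they came from separate transductions is not given in the sources used here. An effect of WWOX and a difference between the selected populations thus cannot be told apart, also where a WWOX effect is named below. T98G was grown in MEM, DBTRG-05MG in RPMI 1640, and U87MG and U251MG in EMEM, so a difference between lines and one between media cannot be told apart, except between U87MG and U251MG. All libraries were made for CAGE-Seq, in which a tag marks where a capped RNA begins.

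A library held between 10756072 and 16953689 tags on genes, and a count of 0 allows up to 3 tags, or 0.177 to 0.279 CPM, for counting error only. All 24 pairs of libraries of the same group differed far beyond counting noise, with a chi-square per gene from 25.2 to 353, and the pairs of the U251MG “WWOX” variant stood apart with 221 to 353 against at most 143 elsewhere. WWOX itself had a median of 61.3 CPM in “WWOX” against 39.8 in “Vec” of U87MG, 60.0 against 38.6 in T98G, 38.0 against 32.1 in U251MG, and 28.2 against 21.3 in DBTRG-05MG. No line passed the limma test for WWOX (adjusted p from 0.136 to 1.0), and 1 library labelled “WWOX” of U251MG had 17.4 CPM, below all “Vec” libraries of that line. The 5′ end of a vector transcript need not lie in the WWOX locus, so these tags do not check the labels. The study reports that Western blots of extracted protein bore out the transduction, and protein was not measured here. Of 8 glial markers, CD44 (678 to 3520 CPM) and VIM (13.5 to 71.7 CPM) passed 5 CPM in every library, while AQP4 stayed at or under 1.03 CPM and OLIG2 at or under 3.57 CPM. The other 4 were high in some libraries and near 0 in others, GFAP from 0.790 to 3226 CPM, SOX2 from 0 to 268, NES from 0 to 129, and S100B from 0 to 343, and they reached 5 CPM in 12, 12, 12, and 8 of the 24 libraries. Markers of leukocytes, endothelium, epithelium, and hepatocytes (PTPRC, PECAM1, EPCAM, KRT5, and ALB) did not exceed 0.914 CPM.

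SnoRNAs guide the chemical modification of ribosomal RNA, C/D-box members directing 2′-O-methylation and H/ACA-box members directing pseudouridylation, and the related scaRNAs act on spliceosomal RNA in Cajal bodies. In human cells most of them are cut from the introns of a longer, capped transcript of RNA polymerase II, the host. Many hosts, and the ribosomal protein genes, begin with a 5′ terminal oligopyrimidine (TOP) tract, a feature of transcripts whose translation follows growth signaling. A host without a protein product is often degraded by nonsense-mediated decay, so the level of the spliced host need not follow that of its snoRNAs. CAGE-Seq measured the capped host and not the snoRNA cut from it. Because a transcript gives tags from its 5′ end only, CPM of different genes were compared without dividing by length.

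GENCODE 44 places 145 snoRNA or scaRNA genes within the hosts on the same strand, 110 of the C/D and 26 of the H/ACA class by name, and 31 of the 32 hosts hold at least 1. SNHG14, the long transcript of the Prader-Willi region, holds 84 of them. GAS5 holds none in this annotation, although the RefSeq table places 11 snoRNA genes in its span. SNHG22, SNHG10, SNHG20, and SNHG21 hold scaRNAs (SCARNA17, SCARNA13, SCARNA16, and SCARNA15), SNHG29 holds SNORD49A, SNORD49B, and SNORD65, and ZFAS1 holds SNORD12, SNORD12B, and SNORD12C.

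The RefSeq promoter table (GRCh38.p14) held 28 of the 32 hosts. The sequences below run from 30 bases before the annotated start to 30 bases from it, 5′ to 3′ on the strand of the gene, and are shown because the results turn on most of these hosts. The first 7 hold a TOP-like tract, in capitals, set here as a C followed by at least 4 pyrimidines that begins within 5 bases of the start on the strand of the gene. The last 3, the hosts with the most tags, hold none at the start that RefSeq gives. The set shown was picked, so its share of tracts is not that of the hosts. EPB41L4A-AS1, SNHG26, and SNHG1 also hold none and are not shown, nor are some hosts with a tract, such as SNHG18. The RefSeq start differs from the GENCODE start for every host shown, with a tract or without, except SNHG7.
ZFAS1 (chr20:49278612-49278671, plus strand): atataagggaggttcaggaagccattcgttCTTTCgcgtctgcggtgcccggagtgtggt
SNHG32 (chr6:31834886-31834945, plus strand): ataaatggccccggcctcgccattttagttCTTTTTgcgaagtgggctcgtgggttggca
SNHG16 (chr17:76557734-76557793, plus strand): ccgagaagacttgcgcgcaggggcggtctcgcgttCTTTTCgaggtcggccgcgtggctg
SNHG7 (chr9:136728155-136728214, minus strand): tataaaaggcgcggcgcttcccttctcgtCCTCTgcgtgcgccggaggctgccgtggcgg
SNHG8 (chr4:118278732-118278791, plus strand): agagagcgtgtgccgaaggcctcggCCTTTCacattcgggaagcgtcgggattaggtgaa
SNHG12 (chr1:28581844-28581903, minus strand): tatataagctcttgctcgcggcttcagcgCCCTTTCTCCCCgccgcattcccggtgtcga
SNHG5 (chr6:85678704-85678763, minus strand): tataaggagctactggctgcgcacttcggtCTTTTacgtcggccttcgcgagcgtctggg
SNHG29 (chr17:16438957-16439016, plus strand): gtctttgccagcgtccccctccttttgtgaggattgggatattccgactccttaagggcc
SNHG22 (chr18:49813993-49814052, plus strand): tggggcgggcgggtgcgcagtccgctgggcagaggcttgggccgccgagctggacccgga
GAS5 (chr1:173869016-173869075, minus strand): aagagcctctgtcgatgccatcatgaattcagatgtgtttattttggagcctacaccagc

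Of the 28 hosts in the table, 13 (46.4%) held such a tract, against 21.1% of 27305 promoters, 76.1% of 71 promoters of cytosolic ribosomal protein genes, and 19.7% of 3633 promoters of other lncRNA genes. Among hosts past the filter they were 9 of 21. The E-box CACGTG, which reads the same on both strands, lay in the 300 bases around the start of 2 hosts, SNHG7 and SNHG30, which is 7.14% against 7.43% of all promoters. TATAA or TATATA between 40 and 15 bases before the start, a search chosen after the sequences had been seen and made on the strand of the gene only, was found in 6 of 28 hosts (21.4%), against 4.65% of all promoters. These were SNHG12, SNHG19, SNHG5, SNHG7, SNHG8, and ZFAS1, all of which also hold the TOP-like tract. A match describes the letters only, and whether the tags begin at these starts was not tested.

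The hosts spanned a wide range of levels. Averaged over the 8 groups, SNHG29 had 1085 CPM, SNHG22 had 702, GAS5 had 445, ZFAS1 had 357, and SNHG16 had 244 CPM. SNHG32 (196 CPM), SNHG7 (118), SNHG8 (108), SNHG6 (101), and EPB41L4A-AS1 (70.0 CPM) followed. In all, 9 hosts had a mean of at least 100 CPM, 20 of at least 10, and 26 of at least 1 CPM. The 5 leading hosts together held between 64.5% and 83.6% of the host tags of a library. GAS5 is known as a transcript of growth-arrested cells, and ZFAS1 lies antisense to the start of ZNFX1. SNHG29 ranged among “Vec” groups from 874 ± 231 CPM (SD, n = 3) in U251MG to 1105 ± 73.2 CPM in T98G. Neighbors in this order overlapped, as GAS5 (107 to 1232 CPM over the 24 libraries) did with ZFAS1 (117 to 641 CPM).

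**Figure D1:**
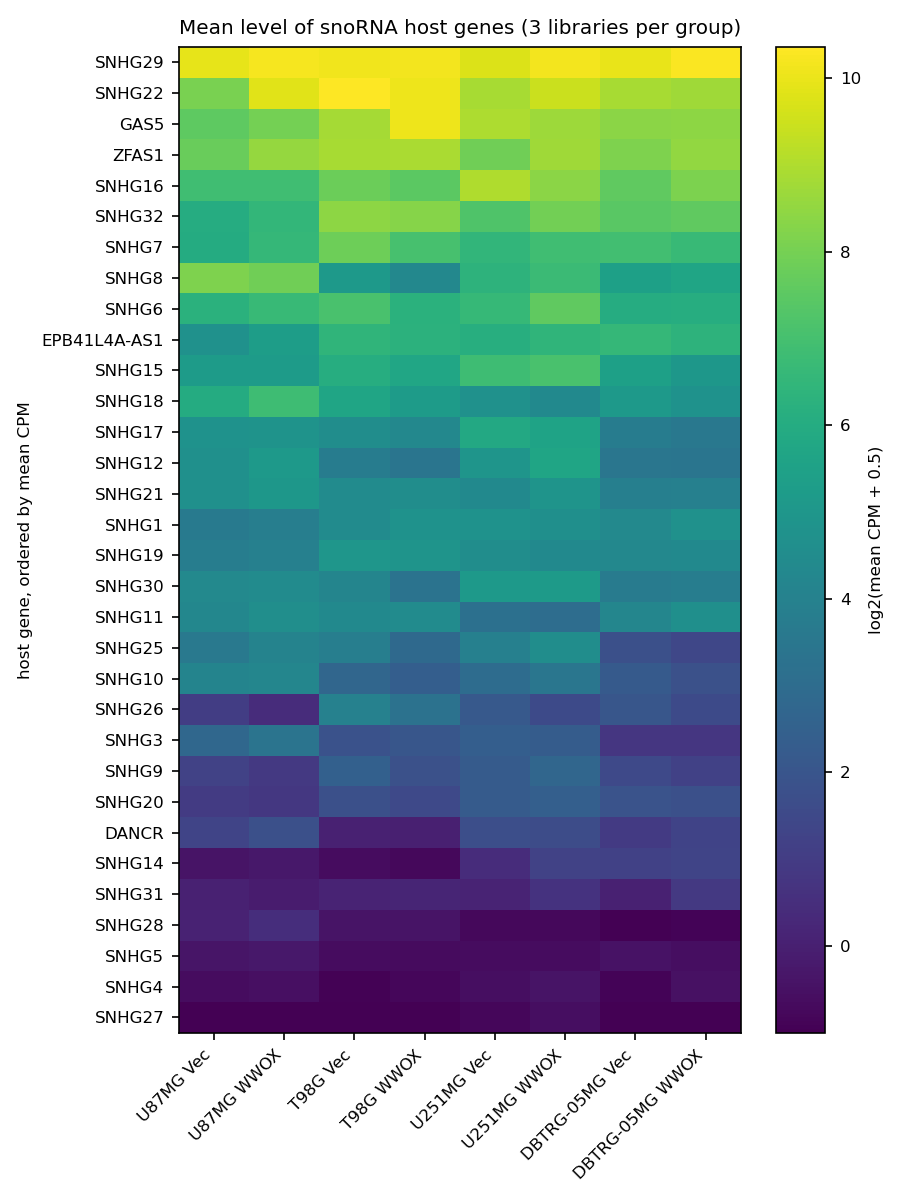
Mean CPM of the 32 host genes (rows, from the highest to the lowest mean over the groups) in the 8 groups (columns, 3 libraries each), colored by log2(mean CPM + 0.5). SNHG29 is high in every column, SNHG8 is highest in the U87MG columns, and SNHG26 in the T98G columns. The last 7 rows are the hosts that reached 5 CPM in no single library.

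The 7 hosts that did not reach 5 CPM in any library were DANCR, SNHG14, SNHG31, SNHG28, SNHG5, SNHG4, and SNHG27. DANCR, known as an antagonist of differentiation in progenitor cells, had the highest mean over the groups among them (1.85 CPM). It ran from 0.281 CPM in a T98G “Vec” library to 3.61 CPM in a U87MG “WWOX” library. Its group means were 0.531 ± 0.219 and 0.501 ± 0.0809 CPM in “Vec” and “WWOX” of T98G, and from 1.41 ± 0.0812 to 2.96 ± 0.574 CPM in the other 6 groups (SD, n = 3). SNHG14 reached 4.12 CPM in a U251MG “WWOX” library, the highest value of these hosts, and its mean was above that of DANCR in both DBTRG-05MG groups. SNHG31 reached 2.20, and SNHG28 reached 1.69 CPM. SNHG5 and SNHG4 stayed at or below 0.428 and 0.343 CPM. SNHG27 was at 0 outside U251MG, where it had at most 3 tags.

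All 7 of these overlap another annotated gene on the same strand, against 5 of the 25 hosts that passed the filter, a count made after the low values had been seen. Over protein-coding genes the shares were 26.2% of those that did not pass and 24.0% of those that passed, over other lncRNA genes 19.0% and 25.6%, and over all annotated genes 18.8% and 24.6%. The levels of the overlapping genes varied. MATR3, which overlaps SNHG4, had 19.2 to 58.9 CPM, and SNRPN, which overlaps SNHG14, had 0 to 47.8 CPM. LINC01618, which overlaps DANCR, did not exceed 0.0811 CPM, and PKMP3, which overlaps SNHG5, was at 0 in all libraries. Among the overlapped hosts that passed, SNHG16 (up to 595 CPM) and SNHG32 (up to 422 CPM) were high, and SNHG3, the host of SNORA73A and SNORA73B, which overlaps RCC1, had a mean of 4.34 CPM. How tags in overlapping genes were assigned, and whether strand was used for the 19 hosts that overlap a gene on the other strand, is not given in the sources used here. The part of the overlap in these low values was not tested.

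**Figure D2:**
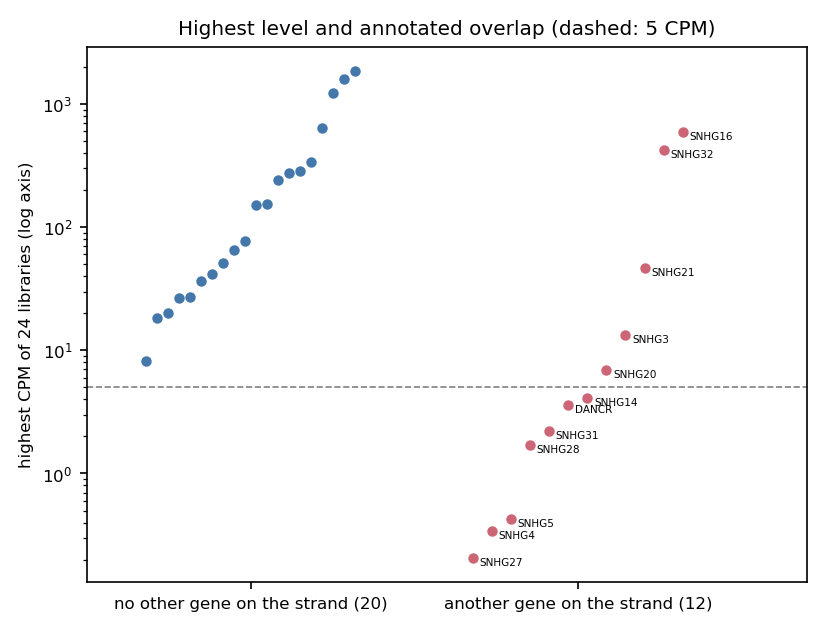
Highest CPM of each host gene over the 24 libraries (log axis), for the 20 hosts with no other annotated gene on their strand and the 12 with one, with the filter of 5 CPM dashed. All 20 on the left lie above the line, and 7 of the 12 on the right lie below it.

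Libraries of the same group differed widely in their hosts. The summed CPM of all 32 hosts ran from 1878 to 4349 in “Vec” of DBTRG-05MG, 2.32-fold, and from 2345 to 4502 in its “WWOX” variant, but only from 3567 to 4066 in “WWOX” of U87MG. In “Vec” of U87MG the sum ran from 1974 to 3296, in “Vec” of T98G from 3946 to 5164, and in “WWOX” of T98G from 4009 to 5803. In U251MG it ran from 2522 to 3959 in “Vec” and from 3495 to 4779 in “WWOX”. The sum of the 89 cytosolic ribosomal protein genes, between 70269 and 154688 CPM per library, was highest in the same library as the host sum in 6 of the 8 groups, and it ranked the 3 libraries in the same order in 4 of 8.

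On the log2 scale the SD within groups had a median of 0.51 over the 25 tested hosts, against 0.40 over all tested genes and 0.41 over tested ribosomal protein genes. It was above the median of all genes in 21 of the 25. GAS5 had the largest (0.84), followed by SNHG15 (0.77), SNHG7 (0.68), and ZFAS1 (0.68), while SNHG16 (0.34) and SNHG18 (0.34) had the smallest. In “Vec” of DBTRG-05MG, for instance, GAS5 had 235, 651, and 115 CPM, and ZFAS1 had 217, 497, and 133 CPM. Both were highest in the library with the highest ribosomal protein sum and lowest in that with the lowest. In “WWOX” of the same line, GAS5 was highest in library 1 and the ribosomal protein sum in library 3. Both were lowest in library 2 there.

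**Figure D3:**
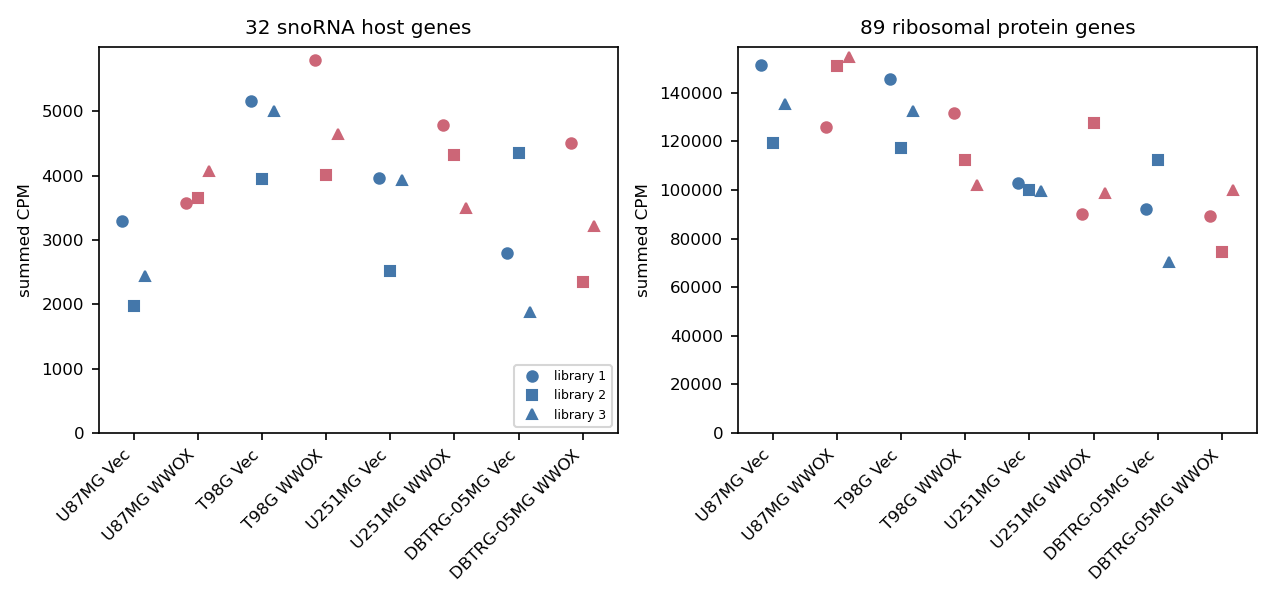
Summed CPM of the 32 host genes and of the 89 cytosolic ribosomal protein genes (y axes, from 0) in each library, by group (x axis), with “Vec” and “WWOX” in different colors and the marker shape giving the library number. In “Vec” of DBTRG-05MG both sums are highest in library 2 and lowest in library 3. In its “WWOX” variant the host sum is highest in library 1 and the ribosomal sum in library 3.

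Whether WWOX overexpression changed the hosts was asked in each line, and no host passed the threshold (limma, Benjamini-Hochberg adjusted p of 0.05) in any of them. In U87MG 0 of 25 hosts were called, against 3.20% of all genes tested, and 2 had an unadjusted p under 0.05, SNHG22 and SNHG18, against 11.5% of all genes. In T98G 0 were called, against 1.14% of all genes, and 4 had an unadjusted p under 0.05, SNHG6, SNHG25, SNHG8, and SNHG30, against 11.5%. In U251MG 0 were called, against 0.316%, and 2 were under 0.05 unadjusted, SNHG6 and SNHG16, against 11.5%. In DBTRG-05MG 0 were called, against 1.02%, and 0 were under 0.05 unadjusted, against 7.63%. The unadjusted counts were thus near or below the share over all genes. On the recovered tags, edgeR, limma-voom, and DESeq2 each called 1 host in U87MG, SNHG22, and 0 in the other lines. The median standard error of a log2FC was 0.39 for the hosts and 0.32 for all genes.

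The median log2FC (“WWOX” minus “Vec”, on the log2(CPM + 0.5) scale) of the 25 tested hosts was 0.23 in U87MG, where 19 were above 0, and -0.24 in T98G, where 7 were. It was 0.19 in U251MG, with 16 above 0, and -0.04 in DBTRG-05MG, with 11. The medians of all genes lay between -0.04 and 0.00 in the 4 lines. The median of U251MG was -0.11 without “Vec” replicate 2 and -0.16 without “WWOX” replicate 2, and that of DBTRG-05MG was 0.29 without “Vec” replicate 2 and 0.21 without “WWOX” replicate 2.

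**Figure D4:**
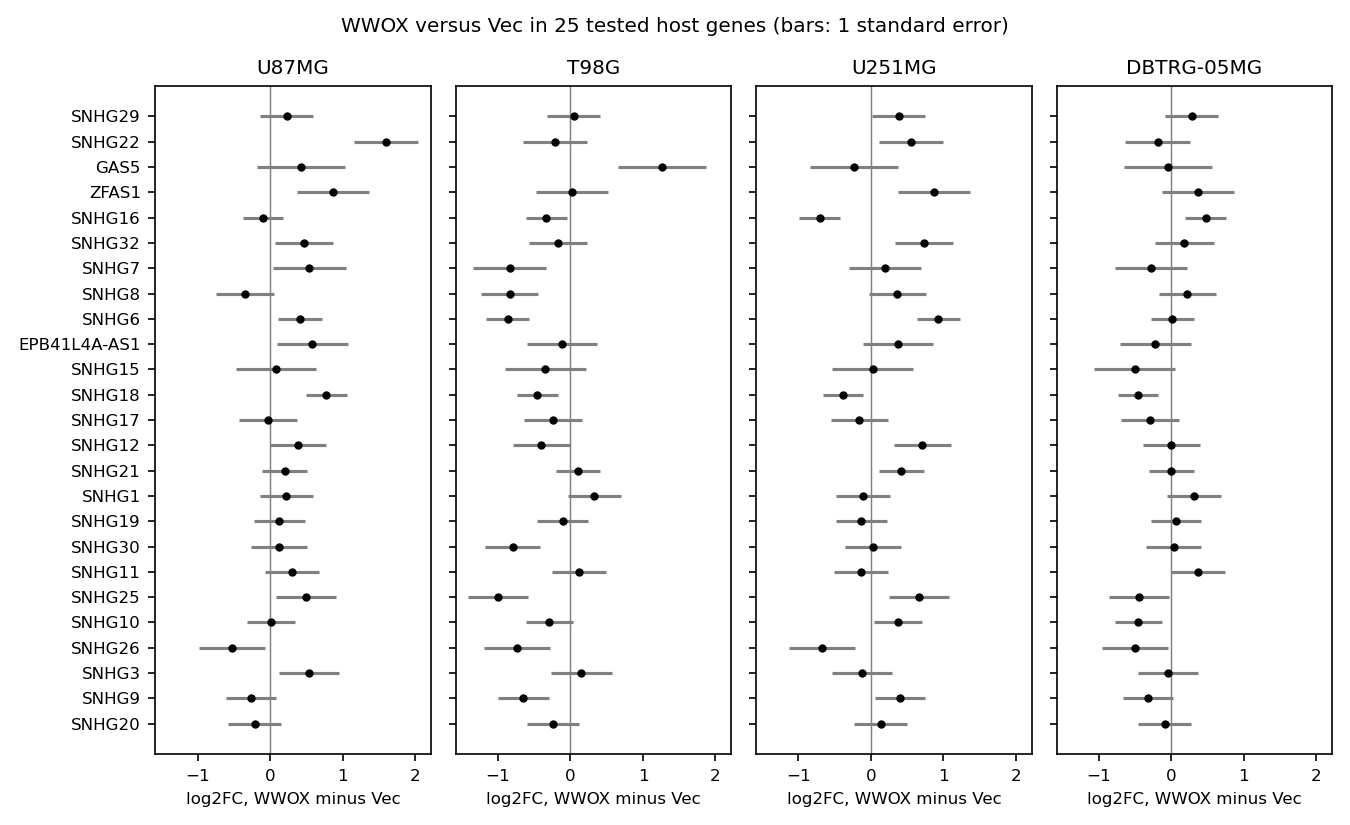
log2FC of “WWOX” minus “Vec” (x axis, bars of 1 standard error) for the 25 tested host genes (rows) in the 4 lines (panels). SNHG22 in U87MG (1.60) and GAS5 in T98G (1.26) lie farthest from 0.

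SNHG22, the host of SCARNA17 (chr18:49813965-49851059, plus strand), had the largest log2FC of all hosts. Its U87MG “Vec” libraries had 295, 248, and 272 CPM, and the “WWOX” libraries had 553, 871, and 1308 CPM. All “WWOX” libraries were above all “Vec” libraries, and the spread among them was wide. The log2FC was 1.60 ± 0.44 (SE) with a limma adjusted p of 0.0511, just outside the threshold. DESeq2 gave an adjusted p of 0.00539, edgeR 0.0366, limma-voom 0.0415, and limma on CPM as deposited 0.0119. These were the 4 of 11 alternatives that passed. Among the others, limma gave 0.134 in a separate model of each line and 0.109 with a block for the replicate number. Over the 24 limma fits without 1 library the adjusted p ran from 0.0115 to 0.241. It fell under the threshold in 7 of these 24, without T98G “Vec” 2 or 3, T98G “WWOX” 1, U87MG “WWOX” 1, U251MG “Vec” 2, or U251MG “WWOX” 1 or 2.

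In T98G the “Vec” libraries of SNHG22 had 1558, 538, and 1839 CPM and the “WWOX” libraries 1598, 862, and 714 CPM, and these overlapped. In U251MG it had 601, 343, and 479 CPM in “Vec” and 588, 847, and 643 CPM in “WWOX”, and in DBTRG-05MG 444, 489, and 469 against 408, 418, and 460 CPM. The variants overlapped in these lines too. The log2FC of U251MG was 0.55, that of T98G -0.22, and that of DBTRG-05MG -0.19, with a common SE of 0.44. The limma F test of a difference in this effect between lines did not pass (adjusted p = 0.253).

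The start of SNHG22 lies head to head with that of ACAA2, a thiolase of mitochondrial fatty acid oxidation, 12 bases away in GENCODE 44. ACAA2 had 21.2 ± 2.65 CPM in “Vec” and 19.3 ± 1.08 CPM in “WWOX” of U87MG (SD, n = 3), a log2FC of -0.19 with a limma adjusted p of 0.947. The 177 tested genes of chromosome 18 had a median log2FC of 0.28 in U87MG, and the part of that shift in the value of SNHG22 was not tested. The RefSeq promoter of SNHG22 is shown whole because both genes start in or beside it, at chr18:49813773-49814072 on the plus strand, with no part marked.
SNHG22 promoter: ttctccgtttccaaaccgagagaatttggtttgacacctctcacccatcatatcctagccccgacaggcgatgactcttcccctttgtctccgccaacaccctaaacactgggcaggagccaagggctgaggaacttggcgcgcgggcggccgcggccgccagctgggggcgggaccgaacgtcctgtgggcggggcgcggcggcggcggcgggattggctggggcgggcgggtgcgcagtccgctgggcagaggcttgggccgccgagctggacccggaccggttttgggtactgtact

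GAS5 (chr1:173858559-173868882, minus strand) had 376, 577, and 395 CPM in “Vec” and 1216, 788, and 1232 CPM in “WWOX” of T98G. The “WWOX” libraries were all higher. The log2FC was 1.26 ± 0.61 (SE), with a limma adjusted p of 0.437. In U87MG it had 267, 107, and 188 CPM in “Vec” and 334, 199, and 225 CPM in “WWOX”, and in U251MG 631, 218, and 654 against 592, 426, and 224 CPM. In “WWOX” of DBTRG-05MG it had 721, 155, and 164 CPM. The variants overlapped in these 3 lines.

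SNHG6, the host of SNORD87, had values that went opposite ways in T98G and U251MG. In T98G it had 161, 159, and 94.6 CPM in “Vec” and 70.4, 94.0, and 59.6 CPM in “WWOX”, with a log2FC of -0.87 ± 0.30 (limma adjusted p = 0.198). In U251MG it had 96.0, 123, and 76.0 CPM in “Vec” and 191, 141, and 240 CPM in “WWOX”, with a log2FC of 0.93 ± 0.30 (limma adjusted p = 0.200). The variants did not overlap in either line. In U87MG it had 101, 45.2, and 79.1 against 114, 103, and 83.5 CPM, and in DBTRG-05MG 58.8, 86.5, and 47.7 against 85.1, 48.5, and 68.9 CPM. The difference between lines had the smallest p of all hosts, 0.00285 unadjusted and 0.0680 adjusted (limma F test).

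In the test of a difference in the WWOX effect between lines, 0 of 25 hosts were called by limma, against 3.50% of all genes, and 5 had an unadjusted p under 0.05 (SNHG6, SNHG18, SNHG22, SNHG25, and SNHG16), against 14.6% of all genes. DESeq2 called 1 host there, SNHG6, and edgeR and limma-voom called 0. In the mean of the 4 lines 0 were called, against 1.78%, by limma and by the other 3 tools, and 2 had an unadjusted p under 0.05, against 15.4% of all genes, SNHG26 (log2FC -0.61 ± 0.23, adjusted p = 0.197) and ZFAS1 (0.53 ± 0.25, adjusted p = 0.310).

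SNHG26, the host of SNORD93, had a log2FC below 0 in all 4 lines, from -0.51 in DBTRG-05MG to -0.74 in T98G. In T98G, where it was highest, it had 18.3, 11.5, and 16.9 CPM in “Vec” and 11.1, 8.98, and 7.20 CPM in “WWOX”. No “WWOX” library of T98G passed the lowest “Vec” library on this scale, and on the scaled values the variants overlapped. In the other lines SNHG26 lay between 0.612 and 7.24 CPM and the variants overlapped.

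ZFAS1 (chr20:49278178-49299600, plus strand) had 352, 132, and 158 CPM in “Vec” and 408, 319, and 395 CPM in “WWOX” of U87MG, and 273, 117, and 318 against 641, 357, and 278 CPM in U251MG. In T98G it had 537, 487, and 398 against 504, 414, and 525 CPM, and in “WWOX” of DBTRG-05MG 606, 181, and 325 CPM. Its “Vec” and “WWOX” libraries overlapped in every line.

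SNHG16, the host of SNORD1A, SNORD1B, and SNORD1C, had 388, 595, and 561 CPM in “Vec” and 402, 194, and 391 CPM in “WWOX” of U251MG, a log2FC of -0.71 ± 0.28 (limma adjusted p = 0.317). On the scaled values the variants did not overlap, while on the CPM as deposited the highest “WWOX” library was above the lowest “Vec” library. In DBTRG-05MG it had 177, 245, and 155 against 362, 219, and 258 CPM, a log2FC of 0.47 ± 0.28. The direction thus differed between these lines, with neither past the threshold. SNHG25, a host of only 540 bases, had 17.7, 15.1, and 9.65 CPM in “Vec” and 9.48, 6.75, and 4.56 CPM in “WWOX” of T98G, a log2FC of -0.99 ± 0.41 (limma adjusted p = 0.337). SNHG8, the host of SNORA24, had 41.2, 30.5, and 30.4 against 17.5, 26.6, and 13.7 CPM there, a log2FC of -0.84 ± 0.39 (limma adjusted p = 0.420). All “WWOX” libraries of both genes were below the “Vec” libraries in T98G. The 736 tested genes of chromosome 17, which holds SNHG25, SNHG30, SNHG16, SNHG20, and SNHG29, had a median log2FC of -0.35 in T98G, where these hosts had -0.99, -0.80, -0.33, -0.24, and 0.04, and the part of that shift in their values was not tested. In U87MG SNHG8 had 341, 266, and 261 against 182, 306, and 235 CPM, which overlapped.

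No other leading host had an unadjusted p under 0.05 in a line. SNHG29 had a log2FC from 0.04 in T98G to 0.38 in U251MG (SE 0.37), and its U87MG libraries had 1276, 738, and 905 CPM in “Vec” and 1209, 1117, and 1163 CPM in “WWOX”. SNHG32, the host of SNORD48 and SNORD52, had from -0.17 in T98G to 0.73 in U251MG (SE 0.40). SNHG7, the host of SNORA17A and SNORA17B, had from -0.84 in T98G to 0.54 in U87MG (SE 0.50), and EPB41L4A-AS1, the host of SNORA13, had from -0.22 in DBTRG-05MG to 0.58 in U87MG (SE 0.49). SNHG15, the host of SNORA9, and SNHG26 had the lowest log2FC in DBTRG-05MG, where SNHG15 had 43.9, 48.5, and 38.8 CPM in “Vec” and 36.9, 26.3, and 33.4 CPM in “WWOX” (-0.51 ± 0.56). SNHG1, the host of SNORD25 to SNORD28 among others, had the second highest in T98G (0.33 ± 0.37), with 20.9, 28.6, and 15.8 against 21.6, 30.1, and 29.2 CPM. SNHG18 in U87MG, named after its value was seen, had 78.2, 53.2, and 54.6 CPM in “Vec” and 151, 111, and 78.4 CPM in “WWOX” (0.78 ± 0.28, limma adjusted p = 0.182).

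Counted on the scaled values, 2 of 25 hosts in U87MG had variants without overlap (SNHG22 and SNHG3, both higher in “WWOX”), against 17.5% of all genes. In T98G it was 4 of 25 (GAS5 higher, SNHG6, SNHG25, and SNHG8 lower), against 16.2%. In U251MG it was 3 of 25 (SNHG6 and SNHG21 higher, SNHG16 lower), against 10.4% (the 392 tested genes of chromosome 15, which holds SNHG21, had a median log2FC of 0.23 there), and in DBTRG-05MG 1 of 25 (SNHG15, lower), against 19.7%. These counts were near or below the background in every line.

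**Figure D5:**
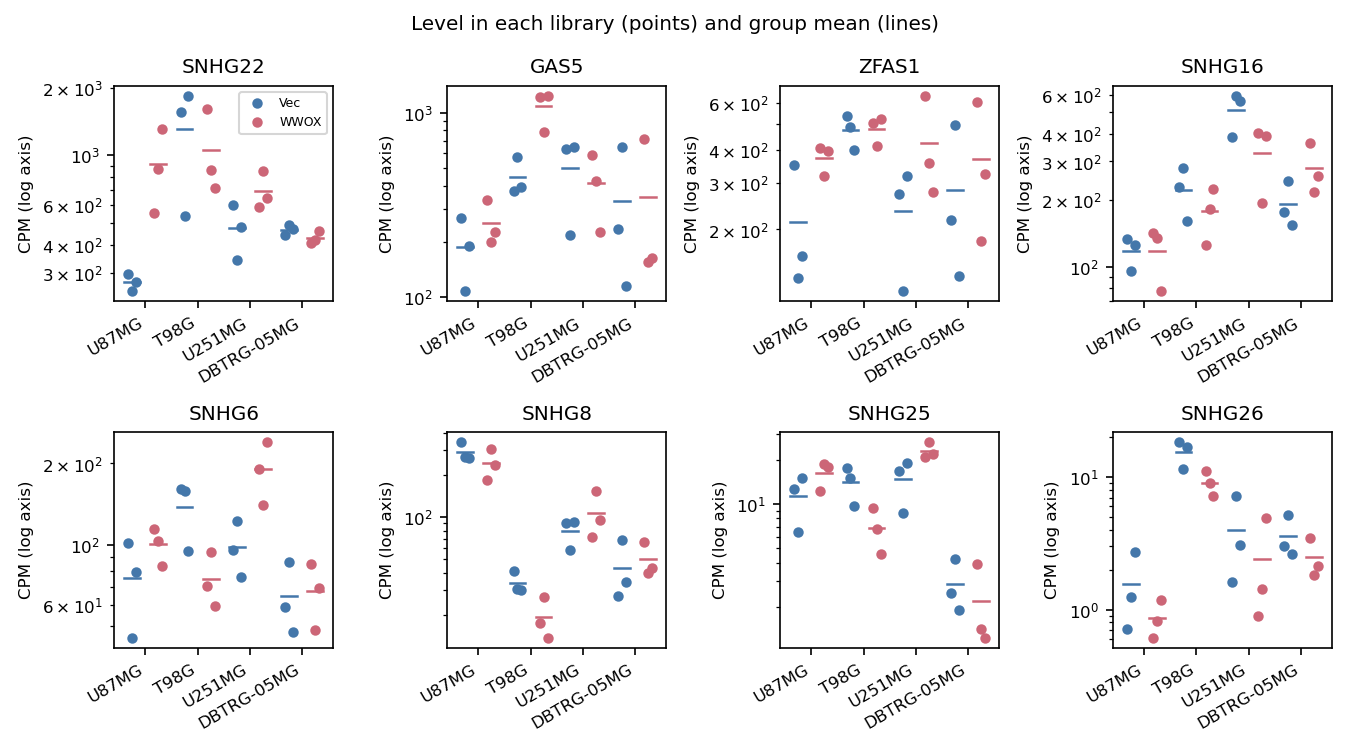
CPM (log axis) of 8 host genes (panels) in each library (points) with the group mean (lines), for “Vec” and “WWOX” of the 4 lines (x axis). SNHG22 in U87MG and GAS5 in T98G lie wholly higher in “WWOX”, and SNHG6 lies wholly lower in T98G and wholly higher in U251MG.

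Levels differed between lines for most hosts. The RNA was of whole cultures, in which fewer cells with a transcript and fewer transcripts per cell cannot be told apart. In “Vec”, 19 of 25 hosts passed the limma F test between the 4 lines, against 66.9% of all genes and 79.2% of 679 other lncRNA genes tested. In “WWOX”, measured in other libraries, 19 of 25 passed, against 73.0% of all genes. Both counts are near the background. The 6 hosts that did not pass in “Vec” were SNHG29 (adjusted p = 0.511), GAS5 (0.148), SNHG15 (0.0938), SNHG1 (0.0735), ZFAS1 (0.0694), and SNHG20 (0.0568).

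SNHG8 (chr4:118278703-118285316, plus strand) had the smallest p of all hosts in “Vec”. It had 289 ± 44.6 CPM in U87MG, 80.0 ± 19.0 in U251MG, 43.2 ± 21.9 in DBTRG-05MG, and 34.0 ± 6.23 CPM in T98G (SD, n = 3), 8.51-fold from the lowest to the highest. All 3 U87MG libraries were above all others, and the T98G and DBTRG-05MG libraries overlapped. Against the mean of the other lines SNHG8 was higher by 2.72 ± 0.32 on the log2 scale in U87MG “Vec” and by 2.47 ± 0.32 in U87MG “WWOX” (limma adjusted p = 3.01e-07 and 1.39e-06). In T98G the difference was -1.39 in “Vec” and -2.30 in “WWOX”.

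In U87MG “Vec”, 4 hosts were higher than the mean of the other lines (SNHG8, SNHG10, SNHG18, and SNHG3), against 19.9% of all genes, and 8 were lower, against 25.2%. SNHG10, the host of SCARNA13, had 17.1 ± 0.515 CPM in U87MG and at most 7.62 ± 0.910 CPM in “Vec” of another line. SNHG32 had 64.9 ± 16.8 CPM in U87MG against 339 ± 41.5 in T98G, and EPB41L4A-AS1 had 26.3 ± 10.7 against 94.6 ± 54.0 CPM in DBTRG-05MG. SNHG22, SNHG16, SNHG26, SNHG1, SNHG9, and SNHG20 were the other hosts called lower in U87MG. Of the 8, 6 were also called lower in “WWOX”, all but EPB41L4A-AS1 and SNHG22, against 79.1% of all genes called lower in “Vec”. All 4 higher hosts were also called higher in “WWOX”, against 76.2% of all genes called higher in “Vec”. Over fits without 1 library the count of lower hosts ran from 4 (without U87MG “Vec” replicate 2) to 11.

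In T98G “Vec”, 9 hosts were higher, against 20.1% of all genes, and 1, SNHG8, was lower, against 20.4%. The higher hosts were SNHG26, SNHG22, SNHG32, SNHG7, ZFAS1, SNHG6, SNHG25, SNHG19, and SNHG9. SNHG26 had 15.5 ± 3.60 CPM in T98G against 1.56 ± 1.05 in U87MG, 9.96-fold, and its difference from the other lines was 2.48 ± 0.37 in “Vec” and 2.31 ± 0.37 in “WWOX” on the log2 scale. Of the 9 hosts, 3 (SNHG19, SNHG26, and SNHG32) were also called higher in “WWOX” of T98G, while 71.6% of all genes called higher in “Vec” were. GAS5 was above the other lines by 0.81 ± 0.50 in T98G “Vec” (limma adjusted p = 0.203) and by 2.02 ± 0.50 in T98G “WWOX” (limma adjusted p = 0.00211). The test of a difference in its WWOX effect between lines did not pass (limma adjusted p = 0.755). In T98G “WWOX” it had 1079 ± 252 CPM against 253 ± 71.4 to 414 ± 184 CPM in “WWOX” of the other lines. The count of higher hosts in “Vec” ran from 5 (without T98G “Vec” replicate 1) to 10 over fits without 1 library.

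In U251MG “Vec”, 4 hosts were higher (SNHG16, SNHG17, SNHG12, and SNHG30), against 16.5% of all genes, and 2 were lower (SNHG11 and SNHG18), against 18.4%, and all 6 were called the same way in “WWOX”. SNHG16 had 515 ± 111 CPM there against 119 ± 20.1 in U87MG. SNHG17 (chr20:38419638-38435409, minus strand) and SNHG11 (chr20:38446343-38450940, plus strand) lie near each other and both hold snoRNAs of the SNORA71 family, and they were called in opposite directions. SNHG17 had 57.6 ± 27.2 CPM in U251MG and 13.3 ± 4.47 in DBTRG-05MG, while SNHG11 had 8.69 ± 3.18 CPM in U251MG and 18.1 ± 2.76 in DBTRG-05MG. Over fits without 1 library the count of higher hosts in U251MG ran from 2 (without U251MG “Vec” replicate 1) to 6.

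In DBTRG-05MG “Vec”, 0 hosts were higher by limma, edgeR, limma-voom, or DESeq2, against 22.7% of all genes by limma. At an unadjusted p under 0.05 by limma 0 were higher too, a threshold that 49.8% of all genes passed in either direction. By limma, 9 were lower (SNHG25, SNHG3, SNHG17, SNHG8, SNHG10, SNHG12, SNHG30, SNHG6, and SNHG21), against 19.9%. Of the 9, 8 were also called lower in “WWOX”, all but SNHG30, while 78.5% of all genes called lower in “Vec” were. SNHG25 had 2.88 ± 1.22 CPM in DBTRG-05MG and 11.4 ± 4.44 to 14.9 ± 5.55 in the other lines, a difference of -2.17 ± 0.34 in “Vec” and -2.68 ± 0.34 in “WWOX” on the log2 scale. SNHG3 had 1.23 ± 1.08 CPM against 6.42 ± 2.02 in U87MG. Over the 4 lines, 28 of the 37 differences called in “Vec” (75.7%) were called the same way in “WWOX”, against 77.6% over all genes.

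The genes that share a pathway with the hosts were counted from lists. Of 8 core proteins of snoRNPs, 12 assembly factors, and 14 tested factors of nonsense-mediated decay, 0 were called in any line or in the mean, by limma and by the other 3 tools. At an unadjusted p under 0.05 there were 1 core protein and 5 assembly factors in U251MG, 2 decay factors each in T98G and U251MG, and 2 in the mean. Over all genes these shares were 11.5% in U87MG, T98G, and U251MG, 7.63% in DBTRG-05MG, and 15.4% in the mean, so that the 5 of 12 assembly factors in U251MG were above the share of that line and the decay factors near it. The assembly factors had a median log2FC of -0.55 in U251MG, with 1 of 12 above 0, and the core proteins -0.23. The hosts had 0.19 there and the other lncRNA genes 0.22. Of 14 tested translation factors with a TOP tract, 0 were called by limma, edgeR, or limma-voom in a line, with 2 and 5 under 0.05 unadjusted in T98G and U251MG, where DESeq2 called 2 and 1. The 5 of 14 in U251MG were likewise above the share of that line, and the 2 in T98G near it. The “WWOX” libraries of U251MG differed most within a group (chi-square per gene from 221 to 353). The counts of these lists were not repeated without single libraries. Their median log2FC in U251MG was -0.38, with 3 of 14 above 0. Of 84 tested ribosomal protein genes, 0 were called by limma, edgeR, or limma-voom in a line, with 11 under 0.05 unadjusted in T98G, 5 in U251MG, 3 in U87MG, and 1 in DBTRG-05MG, and DESeq2 called 3 in T98G. The ribosomal count in T98G was near the share over all genes and those in the other lines below it.

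Of 203 tested protein-coding genes that hold a snoRNA on their strand, 4 were called in DBTRG-05MG, 2 each in U87MG and T98G, and 0 in U251MG by limma (26 under 0.05 unadjusted, and 0 by the other 3 tools). These shares were 1.97% in DBTRG-05MG, where 1.02% of all genes were called, 0.985% in U87MG against 3.20%, 0.985% in T98G against 1.14%, and 0% in U251MG against 0.316%. RAMP1, a partner of the calcitonin receptor-like receptor, fell in U87MG and T98G (-2.20 and -2.09 on the log2 scale), from at most 3.47 CPM on average. SLC47A1, a drug transporter, fell in U87MG (-1.53 ± 0.30) and rose in T98G (2.10 ± 0.30). In DBTRG-05MG, TCP1, a subunit of the chaperonin that folds actin and tubulin, fell from 188 to 97.8 CPM on average. ST8SIA2, a polysialyltransferase, fell by 2.18 on the log2 scale there, and SLC39A11 (0.85) and RNF149 (1.17) rose. Each of these is a host by annotation only. Of 679 tested lncRNA genes outside the hosts, limma called 27 in U87MG, 6 each in T98G and DBTRG-05MG, and 2 in U251MG.

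A gene that starts within 1000 bases on the other strand was annotated for 11 hosts. SNHG1 lies 51 bases from SLC3A2, the heavy chain of amino acid transporters, which had 771 ± 42.5 CPM in “Vec” of T98G against 21.8 ± 6.46 CPM of SNHG1. SNHG9 lies 54 bases from RPS2, a protein of the small ribosomal subunit, which had 3753 ± 376 CPM there against 5.04 ± 2.01 CPM of SNHG9. ZNFX1, whose start lies within ZFAS1, had 42.9 ± 7.14 CPM there against 474 ± 70.3 CPM of ZFAS1. The host thus had the fewer tags in the first pairs and the more in the last. SEMA5A, a semaphorin 95 bases from SNHG18, had 4.45 ± 2.74 CPM in “Vec” and 13.9 ± 5.76 CPM in “WWOX” of U87MG. Its log2FC was 1.55 (limma adjusted p = 0.109), and that of SNHG18 there was 0.78. In T98G the means of both were lower in “WWOX”, 3.28 against 8.37 CPM for SEMA5A and 36.9 against 50.8 for SNHG18. In U251MG SEMA5A had 8.33 CPM in “WWOX” against 3.87, while SNHG18 had 20.3 against 26.1. In DBTRG-05MG SEMA5A had 6.99 against 7.52 CPM (log2FC 0.14) and SNHG18 26.8 against 35.4. No tested partner in the table was called in any line by limma.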

How the data were processed

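Expression was measured by CAGE-Seq in 24 libraries. Per the study's methods, the authors aligned reads to hg38 with STAR and counted tags per gene, and they deposited CPM. The annotation, the treatment of overlapping genes, and strand in that count are not given in the sources used here. The deposited CPM of all 43037 genes were whole tags in 100.0% of values (tolerance 0.1 tag), which gave the tags behind each value. GENCODE 44 gave symbols for 43033 genes.

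CPM were scaled by TMM factors and tested as log2(CPM + 0.5) with limma 3.58.1 (trend, 8 groups, 16 residual degrees of freedom, two-sided), with Benjamini-Hochberg adjustment over 12327 genes and a threshold of 0.05. edgeR 4.0.16 (quasi-likelihood), limma-voom, and DESeq2 1.42.0 on recovered tags, other pseudocounts, filters, scalings, and models, and fits without each library were alternatives. The code was tested on simulated data. P-values measure the spread between cultures of the same line and variant, pooled over the 8 groups. Whether that includes a spread between separately selected populations is not known. A p-value for 1 line thus also draws on the spread in the other lines.

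Hosts given by library were any that passed a WWOX test, the 10 with the highest mean CPM, and the 2 largest rises and falls per line. The members, lists, and tests were chosen with earlier results of these data known. Same-numbered “Vec” and “WWOX” libraries of a line shared only a number.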

Additional observations from a re-analysis of the deposited data

How the results depend on the processing

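No host was called for “WWOX” against “Vec” in T98G, U251MG, DBTRG-05MG, or the mean of the lines under any alternative. In U87MG the count was 1, SNHG22, with CPM as deposited, edgeR, limma-voom, or DESeq2, and 0 to 1 over fits without 1 library. For the difference between lines it was 1, SNHG6, with DESeq2, and 0 to 1 without 1 library (SNHG6 without U87MG “Vec” replicate 1, SNHG22 without T98G “Vec” replicate 2). Hosts that differed between lines numbered 16 to 23 in “Vec” and 15 to 22 in “WWOX” under the other settings, and 17 to 23 and 16 to 20 without 1 library. Without 1 library the median log2FC of the hosts had a range of 0.07 to 0.43 for U87MG, -0.45 to -0.10 for T98G, -0.16 to 0.38 for U251MG, and -0.36 to 0.29 for DBTRG-05MG. Counts of hosts higher or lower in “Vec” of a line were an alternative added after the data were seen, and under other settings U251MG had 7 higher with CPM as deposited, U87MG 5 lower with a mean of at least 5 CPM or limma-voom, and, with no filter, T98G 3 lower and DBTRG-05MG 1 higher. The replicate block left all counts of hosts for “WWOX” against “Vec” at 0, and the adjusted p of SNHG22 in U87MG was 0.109 with it. Of 12 pairs of libraries with the same number, 4 correlated over 0.1 (r from -0.55 to 0.51), and 3 of 12 “Vec” libraries correlated best with their own number. With the block 307, 63, 23, and 76 genes were called in U87MG, T98G, U251MG, and DBTRG-05MG against 395, 140, 39, and 126 without it.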
